A study of Mus musculus with 4 samples.

Results

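The genes described here are those whose response to 4-hydroxytamoxifen (4OHT) differed in size between leukaemic cells of 2 Runx1 genotypes. For each gene the response in a genotype was the log2 ratio of the 4OHT to the ethanol (EtOH) library, each taken as RPKM + 1 (RPKM is a read number per unit of gene length and of sequencing depth). A gene was a member where the ratio in Runx1 delta/delta minus the ratio in Runx1 delta/+ was at least 1 or at most -1. Of 23240 gene rows, 9595 had a mean of at least 1 RPKM and were compared, and 324 of these were members (3.38%). The members were chosen by these same ratios, so their differences are a description of 4 libraries and not a finding supported by a test.

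The cells came from the bone marrow of leukaemic mice and had been sorted as GFP+ BFP+ CD11b- Gr1-. The labels call them RUNX1-FLT3ITD AML, an acute myeloid leukaemia, where FLT3ITD stands for a duplicated stretch that keeps the FLT3 receptor active. All 4 libraries came from 22 h cultures in SFEM medium that held FLT3L, SCF, IL3 and IL11, all cytokines. They were EtOH and 200 nM 4OHT in B6.Runx1-delta/delta cells, labelled replicate 1, and EtOH and 200 nM 4OHT in B6.Runx1-delta/+ cells, labelled replicate 2; they are called delta/delta and delta/+ cells hereafter. With 1 library in each cell of this design there are 0 residual degrees of freedom for a difference between responses, so no value has a replicate check and no p-value is given. Genotype and replicate number cannot be told apart, and the labels leave unsaid if a genotype's libraries came from the same mouse. They also do not say which protein 4OHT acts on; the drug can activate a protein joined to an altered oestrogen receptor domain.

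RUNX1 is a DNA-binding subunit of the core-binding factor, which pairs with CBFB and helps set the fate of blood stem and progenitor cells, megakaryocytes and mast cells. GATA factors and PU.1 act at many of the same genes: GATA1 drives red cell maturation, GATA2 acts in stem cells, mast cells and basophils, and PU.1 acts in myeloid cells. Mast cells and basophils carry the high-affinity receptor for immunoglobulin E (IgE), which triggers release of granules, lipid mediators and cytokines.

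The libraries held 33.7 to 39.4 M mapped reads. Runx1 stood at 568 and 380 RPKM in EtOH and 4OHT of delta/delta cells, and at 555 and 328 RPKM in delta/+ cells. Its responses differed by 0.18, and the value of a whole gene does not check a deletion of part of it. Flt3 stood at 12.6, 16.8, 46.3 and 39.7 RPKM in the same order, a difference of 0.60, so neither gene named in the labels was a member. Itgam, which encodes the CD11b that the sort selected against, was at most 0.358 RPKM. The 6 neutrophil markers summed to 46.4 and 51.4 RPKM in EtOH and 4OHT of delta/delta cells and to 17.7 and 19.8 RPKM in delta/+ cells. The summed level of 5 red cell markers was 10637 RPKM in EtOH and 546 RPKM in 4OHT of delta/delta cells, and 4588 and 485 RPKM in delta/+ cells. Globin genes held 12.3% and 7.66% of the summed RPKM of the EtOH libraries and 0.918% and 0.662% of the 4OHT libraries. In bulk RNA, fewer cells of a type and less RNA per cell cannot be told apart.

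The members leaned to the side of a higher ratio in delta/delta cells. The difference was at least 1 for 233 genes (2.43% of the genes compared) and at most -1 for 91 genes (0.948%). The side of the higher ratio was delta/delta cells for 71.9% of members and for 54.4% of all genes compared. Over all genes the median ratio was 0.17 in delta/delta cells and 0.15 in delta/+ cells, and 90% of the differences lay between -0.55 and 0.74. Only 33 members differed by 2 or more in either direction, and the median size was 1.29.

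Members were split by the genotype with the larger ratio in size. A larger rise in delta/delta cells was seen for 159 genes (1.66%), with a median ratio of 1.89 in those cells and 0.50 in delta/+ cells. A larger fall in delta/delta cells was seen for 76 genes (0.792%), with medians of -1.99 and -0.67. A larger fall in delta/+ cells was seen for 74 genes (0.771%), with medians of -0.37 in delta/delta cells and -1.77 in delta/+ cells. The smallest class, a larger rise in delta/+ cells, had 15 genes (0.156%), with medians of 0.46 and 1.96. The share of members was 4.27% of genes with a mean of 1 to 5 RPKM, 3.28% at 5 to 20, 2.95% at 20 to 100 and 2.71% at 100 or more.

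**Figure D1:**
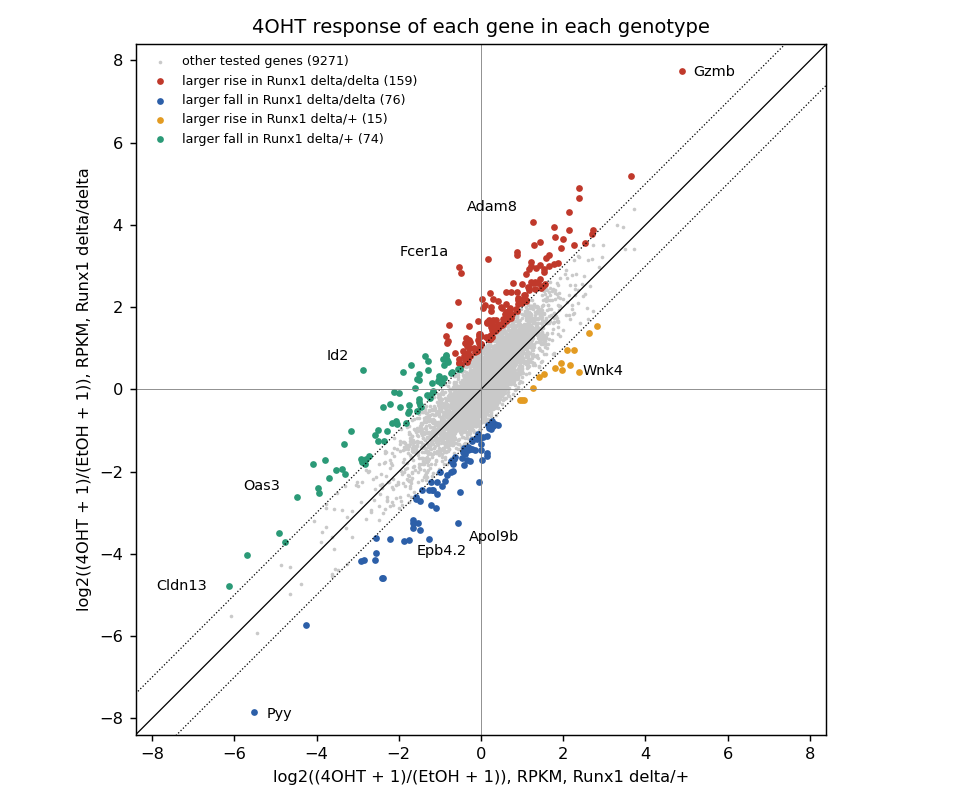
Log2 ratio of 4OHT to EtOH (RPKM + 1) in delta/+ cells (horizontal axis) against delta/delta cells (vertical axis), 1 point per gene for 9595 genes and 1 library per genotype and treatment. The solid line marks equal ratios, the dotted lines a difference of 1 either way, and colours mark the 4 classes of members (159, 76, 15 and 74 genes).

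Counting error was small beside most of these differences, but it is the only error that can be given. Whole reads were recovered from the steps of the RPKM values, and the 95% interval they give had a median half-width of 0.19 over the members and 1.003 at most. This interval stayed beyond a difference of 1 for 205 of the 324 members. At the edge of the rule, Cotl1 and Cytip lay just inside (both 1.005) and Ctsg and St6galnac3 just outside at 0.998 and 0.997. On the other side Fn3krp (-1.002) and Tmcc2 (-1.01) lay inside and Slfn9 and Ypel4 (both -0.98) outside. The genes on either side of the threshold thus had nearly equal differences.

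Among lists with at least 10 genes compared, the mast cell, basophil and eosinophil list had the highest share of members (53.3%). Over all genes compared the share was 3.38%. Of 26 listed genes, 15 passed the filter on low values, and 8 of these 15 were members, all with the higher ratio in delta/delta cells. The median difference of the 15 was 1.17, against 0.03 for all genes compared, with 14 of 15 above 0; it was 0.71 with 5 RPKM added in place of 1. The median ratio was 0.83 in delta/delta cells and -0.52 in delta/+ cells. Cpa3 and Ms4a2 passed the filter through their 4OHT libraries, so these counts cover the genes that passed and describe no more than that. Windows around the start sites of Fcer1a, Ms4a2, Cpa3 and Prss34 are printed here, from RefSeq on build GRCm38.p6. They run from 250 bases before the start to 50 after it on the gene's strand. Capitals mark the core RUNX motif TGTGGT and the GATA motif AGATAA, read on either strand.
Fcer1a, chr1:173227180-173227479, minus strand: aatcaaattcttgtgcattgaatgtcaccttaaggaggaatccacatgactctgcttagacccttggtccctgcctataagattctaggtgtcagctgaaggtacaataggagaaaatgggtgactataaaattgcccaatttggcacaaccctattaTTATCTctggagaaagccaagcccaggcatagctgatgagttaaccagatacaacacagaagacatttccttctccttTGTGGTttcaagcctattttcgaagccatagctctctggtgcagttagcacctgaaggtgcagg
Ms4a2, chr19:11623670-11623969, minus strand: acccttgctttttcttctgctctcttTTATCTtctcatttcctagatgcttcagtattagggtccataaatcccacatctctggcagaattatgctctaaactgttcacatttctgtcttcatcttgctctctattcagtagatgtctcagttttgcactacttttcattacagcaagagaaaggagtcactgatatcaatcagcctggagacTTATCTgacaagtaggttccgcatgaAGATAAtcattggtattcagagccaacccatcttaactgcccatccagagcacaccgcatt
Cpa3, chr3:20242132-20242431, minus strand: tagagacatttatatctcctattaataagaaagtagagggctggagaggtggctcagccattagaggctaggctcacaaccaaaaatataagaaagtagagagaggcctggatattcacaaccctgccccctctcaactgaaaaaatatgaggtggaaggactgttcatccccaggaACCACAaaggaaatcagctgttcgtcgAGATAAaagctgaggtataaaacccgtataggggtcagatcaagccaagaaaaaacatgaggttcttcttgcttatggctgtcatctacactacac
Prss34, chr17:25298144-25298443, plus strand: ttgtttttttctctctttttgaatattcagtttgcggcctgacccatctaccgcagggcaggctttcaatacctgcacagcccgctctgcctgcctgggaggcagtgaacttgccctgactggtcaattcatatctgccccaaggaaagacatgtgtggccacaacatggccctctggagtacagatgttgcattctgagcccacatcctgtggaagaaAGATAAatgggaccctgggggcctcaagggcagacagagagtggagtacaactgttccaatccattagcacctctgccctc

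Fcer1a, the IgE-binding chain of the receptor, had the largest difference of all members with 1 RPKM added; Gzmb exceeded it with 0.1 RPKM added and Id2 with 5. It stood at 1.69 RPKM in EtOH and 20.1 in 4OHT of delta/delta cells, and at 4.45 and 2.79 RPKM in delta/+ cells. The 4OHT library of delta/delta cells was thus high, the other 3 libraries were low, and the ratios (2.97 and -0.52) had opposite signs. The difference was 3.49, with a 95% counting half-width of 0.37, and 2.19 with 5 RPKM added. The window printed above held 1 RUNX and 1 GATA motif.

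Ms4a2, the beta chain of the same receptor, was low in both EtOH libraries (0.859 and 1.09 RPKM) and reached 14.2 RPKM in delta/delta cells and 4.60 in delta/+ cells with 4OHT. Cpa3, the mast cell carboxypeptidase, went from 0.637 to 24.2 RPKM and from 1.84 to 8.66 RPKM. Prss34, a protease of mast cells and basophils, went from 3.04 to 79.6 and from 1.81 to 11.3 RPKM. These 3 genes were higher in 4OHT in both genotypes, unlike Fcer1a, and their differences were 1.60, 2.17 and 2.18. The Ms4a2 window held 3 GATA motifs and no RUNX motif, that of Cpa3 1 of each, and that of Prss34 1 GATA motif.

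The remaining 4 members of the list were each lower with 4OHT than with EtOH in delta/+ cells. Mcpt8, a basophil protease, stood at 4.79 and 4.93 RPKM in delta/delta cells and at 3.61 and 0.514 RPKM in delta/+ cells (difference 1.64). Il13, a type 2 cytokine, stood at 1.34, 3.16, 3.001 and 1.22 RPKM in the order EtOH and 4OHT of delta/delta cells, then of delta/+ cells, which holds wherever 4 levels follow each other (difference 1.68 with a half-width of 0.56). Srgn, the granule proteoglycan serglycin, was abundant in every library, at 683, 1060, 852 and 588 RPKM (difference 1.17). Gata2 stood at 180, 145, 182 and 63.5 RPKM (difference 1.20), and it is not limited to mast cells. The EtOH values of Gata2 were alike, so its difference lay in the 4OHT libraries.

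The 5 mast cell and basophil markers (Cpa3, Mcpt8, Prss34, Fcer1a and Ms4a2) summed to 11.0 and 12.8 RPKM in the EtOH libraries, 143 RPKM in 4OHT of delta/delta cells and 27.9 RPKM in 4OHT of delta/+ cells. All 5 were above 1 RPKM in the first 4OHT library and 4 in the second. These 5 genes are all members chosen by the rule. Their sums restate that choice and are no separate measure of cell content. All 3 eosinophil markers stayed below 1 RPKM in every library. The part of a changed mix of cells in these differences was not tested.

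Genes of IgE receptor signalling, a family put together after the values were seen, lay on the same side. Of 20 genes 19 passed the filter, 6 had a difference of at least 1 and 0 of at most -1, and the median was 0.66. The share of members was 3.38% over all genes compared. Fcer1a and Ms4a2, described above, are among the 6, so the family is not separate from the mast cell list. The adaptor gene Lat2 went from 4.56 to 23.4 RPKM in delta/delta cells and from 14.2 to 9.31 RPKM in delta/+ cells (difference 2.69). Lat, the related adaptor of T cells and mast cells, went from 59.1 to 308 and from 100 to 153 RPKM (1.75). Lcp2, which encodes the adaptor SLP-76, went from 11.8 to 19.7 and from 27.2 to 10.6 RPKM (1.97), and Fcer1g, the signalling chain, from 6.81 to 45.7 and from 10.5 to 26.6 RPKM (1.32). The kinase genes were not members: Lyn differed by 0.27, Fyn by 0.21 and Btk by 0.91. Alox5ap, which presents arachidonic acid to 5-lipoxygenase, went from 31.6 to 193 and from 52.3 to 105 RPKM (1.57), and was the only member among 5 genes of leukotriene synthesis.

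Outside that list and IgE signalling, the genes that follow had the largest differences among larger rises in delta/delta cells with a mean of at least 5 RPKM. Gzmb, which encodes granzyme B, went from 0.204 to 259 RPKM in delta/delta cells and from 17.0 to 536 RPKM in delta/+ cells. Its 4OHT level was thus lower in delta/delta cells, and the difference of 2.86 came from an EtOH level of only 10 reads there. It was 4.77 with 0.1 RPKM added and 1.05 with 5 RPKM added. Granzymes are a family of close relatives, so reads could be split between copies. Of 5 T and NK cell genes that passed the filter, Gzmb and the granule gene Nkg7 had a difference of at least 1. The kinase gene Lck had one of -1.27, at 2.40, 0.557, 0.542 and 0.696 RPKM. Lck passed the filter through EtOH of delta/delta cells, the library that also makes its difference. Over all genes compared 3.38% were members, and the count in so short a list describes these genes and no more than that. The 6 T and NK markers summed to 2.64 and 7.19 RPKM in delta/delta cells and to 0.907 and 3.40 RPKM in delta/+ cells, with Cd3e and Klrd1 at 0 in every library. Adam8, a surface metalloprotease of leukocytes, went from 1.13 to 35.0 RPKM and from 4.35 to 11.8 RPKM (2.82, or 1.86 with 5 RPKM added), and was highest in 4OHT of delta/delta cells. The tubulin gene Tuba8 went from 2.30 to 97.2 and from 6.13 to 36.4 RPKM (2.50).

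Ptprcap, which binds the phosphatase CD45, went from 4.51 to 52.3 RPKM and from 15.9 to 30.2 RPKM (2.39). Cmtm7, a membrane protein, went from 2.52 to 88.0 RPKM and from 14.5 to 80.0 RPKM (2.27, or 1.504 with 5 RPKM added). For Cmtm7 the 4OHT levels were near each other and the EtOH levels were apart, while for Ptprcap the genotypes were apart in both treatments, in opposite directions. Slc6a4, the serotonin transporter, went from 7.11 to 22.9 RPKM in delta/delta cells and from 34.4 to 19.7 RPKM in delta/+ cells (2.33), so the drug libraries were near each other and the ratios had opposite signs.

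**Figure D2:**
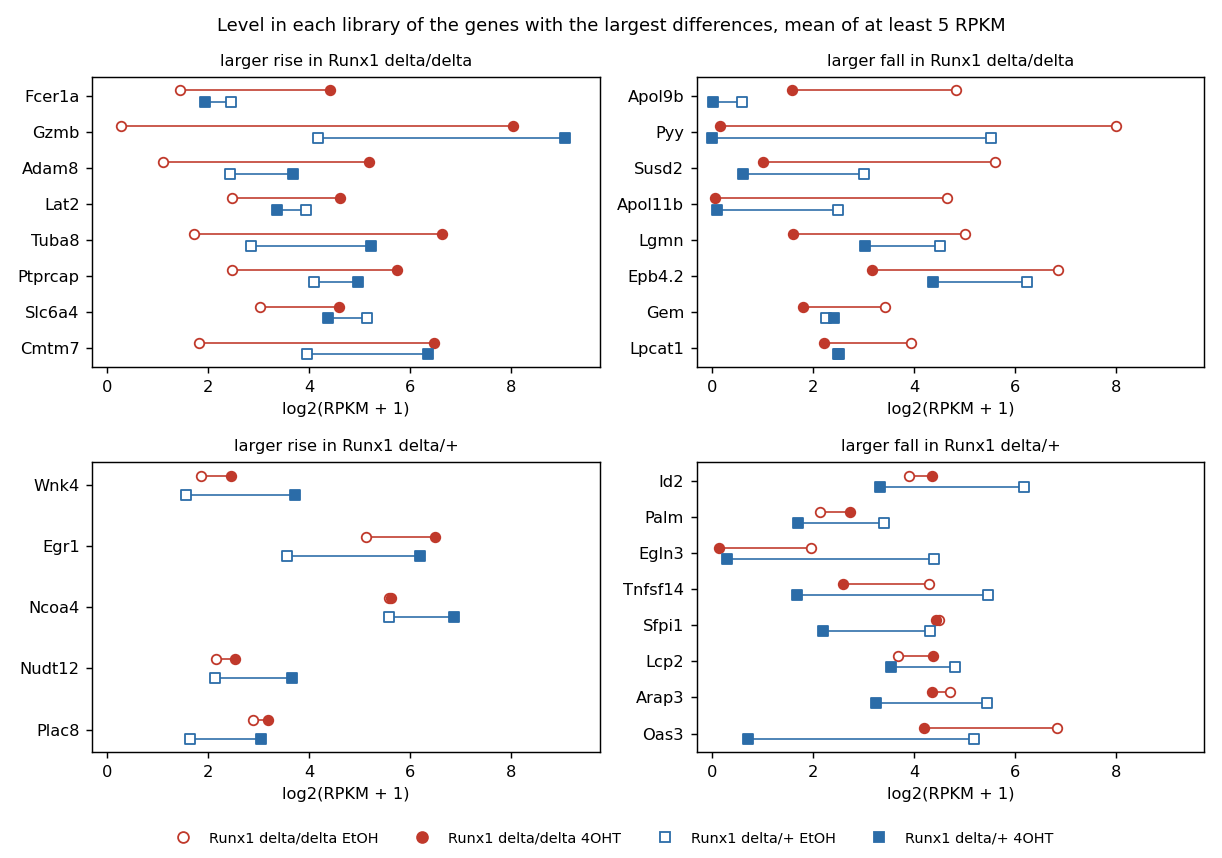
Level of the genes with the largest differences in each class (mean of at least 5 RPKM) as log2(RPKM + 1), with open symbols for EtOH, filled symbols for 4OHT, red circles for delta/delta cells and blue squares for delta/+ cells. Each symbol is 1 library, so there are no error bars; the class of larger rises in delta/+ cells has 5 such genes and the others 8, and the ratios of 8 genes have opposite signs in the genotypes (Fcer1a, Lat2, Slc6a4, Gem, Lpcat1, Id2, Palm and Lcp2).

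Erythroid genes had the most members on the other side. During red cell maturation, cells make globin and haem, take up iron through the transferrin receptor and build a membrane skeleton. All 31 erythroid genes in the table passed the filter. Of these, 8 had a difference of at most -1 and 1 of at least 1, against 0.948% and 2.43% of all genes compared. Only 6 of 31 differences were above 0, against 54.4% over all genes compared. The median ratio of the erythroid genes was -3.10 in delta/delta cells and -2.16 in delta/+ cells, with a median difference of -0.57. Both genotypes thus had much lower erythroid RNA in 4OHT, by more in delta/delta cells.

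Epb4.2, the red cell membrane protein 4.2, stood at 114 and 7.98 RPKM in EtOH and 4OHT of delta/delta cells and at 74.1 and 19.6 RPKM in delta/+ cells (difference -1.82). Spna1, the alpha spectrin of the membrane skeleton, went from 47.0 to 4.00 RPKM and from 41.2 to 12.3 RPKM (-1.60). For these genes delta/delta cells was the higher genotype in EtOH and the lower one in 4OHT. Tfrc, the transferrin receptor, went from 203 to 20.5 RPKM and from 139 to 47.4 RPKM (-1.71), with the same order.

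Another 3 erythroid members had most of their gap in EtOH. Alas2, the first enzyme of haem synthesis in red cells, stood at 265 and 13.9 RPKM in delta/delta cells and at 80.9 and 12.7 RPKM in delta/+ cells (difference -1.58). Slc25a37, the mitochondrial iron importer mitoferrin, went from 115 to 10.2 and from 37.0 to 11.1 RPKM (-1.72). Hemgn, a nuclear protein of blood cells, went from 200.3 to 10.1 and from 104 to 12.8 RPKM (-1.25). In these 3 genes the 4OHT libraries of both genotypes were close, and the larger ratio of delta/delta cells came from its higher EtOH level.

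The alpha globin gene Hba-a1 had 5277 and 1971 RPKM in delta/delta cells and 922 and 753 RPKM in delta/+ cells (difference -1.13), but it is nearly identical to Hba-a2, so its value is uncertain. Cldn13, a claudin of mouse red cell precursors, was the exception, at 294 and 9.67 RPKM in delta/delta cells and 137 and 0.972 RPKM in delta/+ cells (1.34). The iron and haem genes share entries with the erythroid list. Of 25 such genes 3 had a difference of at most -1 and 1 of at least 1, against 0.948% and 2.43% of all genes compared. The last was Steap3, the iron reductase of endosomes, at 77.3, 35.5, 48.9 and 7.42 RPKM (1.47). The summed erythroid markers given above moved with these values, and the part of red cell precursors in them was not tested.

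Other genes with larger falls in delta/delta cells were not erythroid by list. Pyy, the gene of a gut hormone, stood at 256 and 0.109 RPKM in delta/delta cells and at 45.1 RPKM and 0 in delta/+ cells (-2.33, or -1.44 with 0.1 RPKM added). With 4OHT levels of a few reads at most, its difference measures the EtOH gap. Susd2, a membrane protein, went from 47.5 to 1.02 RPKM and from 7.04 to 0.530 RPKM (-2.19), also with most of the gap in EtOH. Lgmn, the lysosomal protease legumain, went from 31.0 to 2.02 and from 21.8 to 7.18 RPKM (-1.93, or -1.22 with 5 RPKM added), and was lower in delta/delta cells than in delta/+ cells only in 4OHT.

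A further 3 members were high in a single library. Gem, a small GTPase that inhibits calcium channels, stood at 9.70 and 2.51 RPKM in delta/delta cells and at 3.80 and 4.31 RPKM in delta/+ cells (-1.75, or -1.05 with 5 RPKM added). Lpcat1, an enzyme of phospholipid remodelling, stood at 14.4, 3.66, 4.66 and 4.71 RPKM (-1.73). Apoe, the lipid carrier and a gene of macrophages, had the same shape at 12.9, 1.92, 2.51 and 2.37 RPKM (-2.19). In all 3 genes the EtOH library of delta/delta cells stood above the other 3 libraries, which were close together.

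The apolipoprotein L genes, grouped after the values were seen, were all members where they passed the filter (3 of 13 in the table passed). Apol9b and Apol8 passed it through EtOH of delta/delta cells, the library that also makes their differences. The count thus describes the genes that passed and no more than that. Apol9b stood at 27.5 and 1.997 RPKM in delta/delta cells and at 0.502 and 0.0159 RPKM in delta/+ cells (-2.69). With 0.1 RPKM added the difference was -1.34, and the delta/+ levels rested on 27 reads and 1 read. The plain ratios of 4OHT to EtOH, 0.073 in delta/delta cells and 0.032 in delta/+ cells, ran the other way. Apol11b stood at 24.0, 0.0397, 4.67 and 0.0740 RPKM (-2.19) and Apol8 at 7.85, 0.193, 1.65 and 0.249 RPKM (-1.81). Each was highest in EtOH of delta/delta cells. These genes have close copies, so the split of reads between them is uncertain.

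Interferon response genes were on both sides. Interferons induce a shared set of antiviral genes, among them the oligoadenylate synthetases, which activate RNA decay. Of 49 listed genes 42 passed the filter. Of these, 6 had a difference of at least 1 and 2 of at most -1, against 2.43% and 0.948% of all genes compared. The median difference of the 42 was 0.48. The median was 0.11 when 5 RPKM was added in place of 1, so it rests on low levels. The list's ratios had medians of -1.10 in delta/delta cells and -1.43 in delta/+ cells.

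Oas3 stood at 112 and 17.5 RPKM in EtOH and 4OHT of delta/delta cells and at 35.3 and 0.635 RPKM in delta/+ cells (difference 1.85). Oas2 stood at 97.7, 24.4, 14.4 and 0.328 RPKM (1.57), and Oasl2 at 204, 48.5, 49.4 and 4.05 RPKM (1.27). For these 3 genes delta/delta cells was the higher genotype in both treatments, and the gap was wider in 4OHT. With 5 RPKM added, the difference of Oas3 was 0.45, because its level in 4OHT of delta/+ cells was so low. The other 5 OAS genes that passed the filter were not members, Oas1a at 0.65 and Oasl1 at 0.08 among them.

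Rtp4, a receptor transporter induced by interferon, stood at 108 and 80.1 RPKM in delta/delta cells and at 25.4 and 5.73 RPKM in delta/+ cells (1.55). Ifitm1, a membrane protein that restricts virus entry, went the other way with the drug, from 2.41 to 43.4 RPKM and from 5.44 to 21.6 RPKM (1.89). The members with the lower ratio in delta/delta cells were the chemokine gene Cxcl10, at 10.4, 0.248, 3.21 and 0.346 RPKM (-1.54), and Ifi44, at 6.38, 1.22, 0.255 and 0.0436 RPKM (-1.47). Cxcl10 and Ifi44 were both highest in EtOH of delta/delta cells. Ifi44 passed the filter through that library, which also makes its difference. Without an added number, Ifi44 fell 5.24-fold in delta/delta cells and 5.85-fold in delta/+ cells, there from 25 to 5 reads. Its difference thus rests on the 1 RPKM added to low levels. None of 16 genes of MHC class I and antigen processing was a member. With 3.38% of all genes compared being members, so short a list can hold none, and nothing is read from it.

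**Figure D3:**
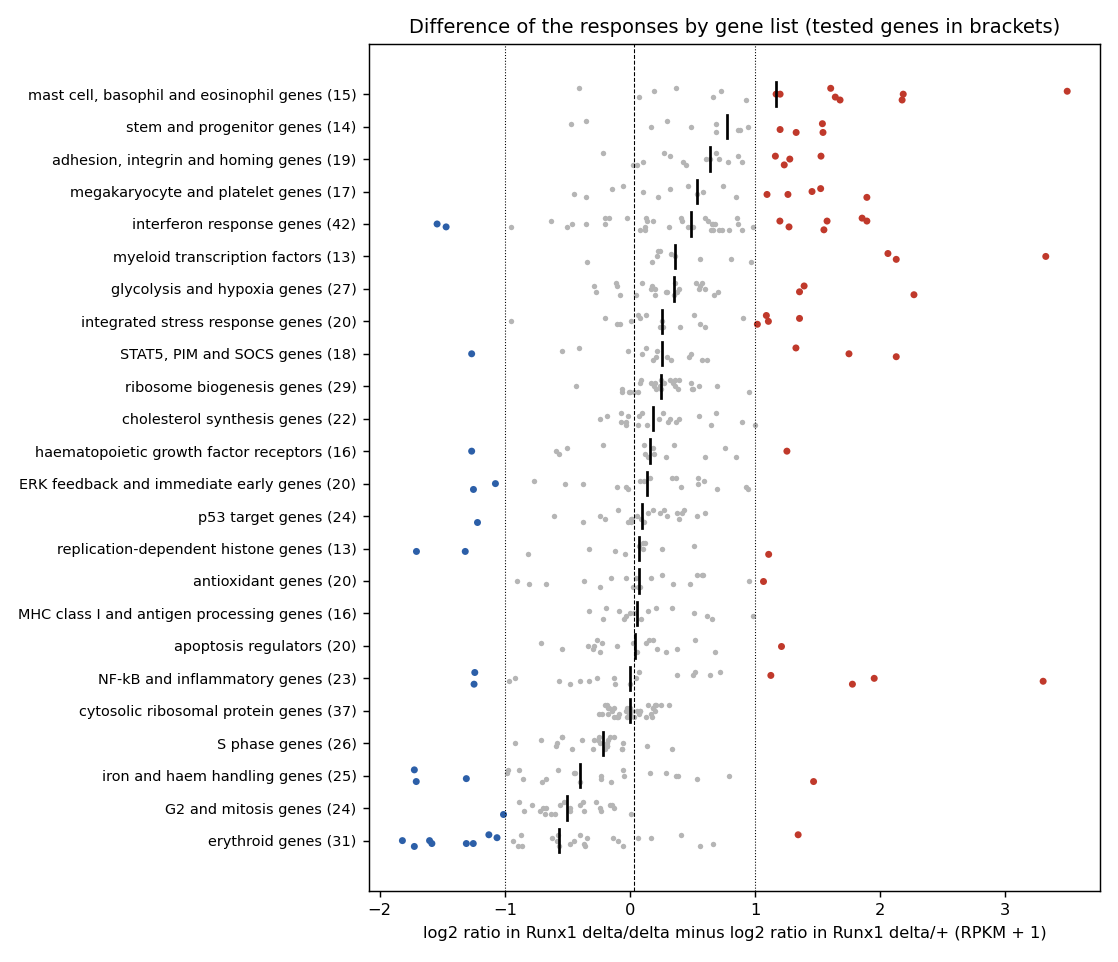
Difference of the responses (log2 ratio in delta/delta cells minus that in delta/+ cells) of each gene compared, for lists with at least 10 such genes; black bars are list medians, the dashed line is the median of all genes (0.03) and dotted lines mark 1 and -1. Red and blue points are members; the mast cell list lies farthest to the right (median 1.17) and the erythroid list farthest to the left (median -0.57).

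Transcription factor genes held some of the largest differences. Of 13 myeloid transcription factors that passed the filter (25 listed), 3 had a difference of at least 1 and 0 of at most -1. The shares over all genes compared were 2.43% and 0.948%. The median difference of the 13 was 0.36 (0.58 with 0.1 RPKM added). Id2, an inhibitor of basic helix-loop-helix factors, stood at 13.9 and 19.5 RPKM in EtOH and 4OHT of delta/delta cells and at 71.8 and 9.02 RPKM in delta/+ cells (difference 3.32 with a counting half-width of 0.19). Its related gene Id1 stood at 9.49, 52.1, 14.4 and 16.8 RPKM (2.13). The outlying library was thus EtOH of delta/+ cells for Id2 and 4OHT of delta/delta cells for Id1.

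Sfpi1, which encodes PU.1, stood at 21.5 and 20.7 RPKM in delta/delta cells and at 18.8 and 3.58 RPKM in delta/+ cells (difference 2.06). All libraries were close except 4OHT of delta/+ cells, which was low. Nfe2, a factor of megakaryocytes and red cells, went from 249 to 79.8 RPKM and from 200.03 to 29.4 RPKM (1.09). Myb, a factor of progenitor cells, went from 17.0 to 99.2 RPKM and from 37.5 to 84.5 RPKM (1.33), so its levels in 4OHT were near each other. The partner gene of RUNX1, Cbfb, went from 16.1 to 59.7 RPKM and from 27.1 to 41.3 RPKM (1.23), and was the only member among 9 RUNX and core-binding-factor genes.

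Stem and progenitor genes had 4 members among the 14 that passed the filter (29 listed), all with the higher ratio in delta/delta cells. Over all genes compared 3.38% were members, and 71.9% of all members had the higher ratio in delta/delta cells. The median difference of the 14 was 0.78 (0.42 with 5 RPKM added). Besides Gata2 and Myb, the 4 members were Emx2 and Slamf1. Emx2, a homeobox gene, went from 0.134 to 40.2 RPKM and from 0.0571 to 12.2 RPKM (1.54). Without an added number the rises were 301-fold and 214-fold, from 12 and 5 EtOH reads. The size of the Emx2 difference thus depends on the number added. Slamf1, the stem cell marker CD150, went from 4.04 to 0.132 RPKM and from 12.6 to 0.0472 RPKM (1.54). These genes did not share a direction with the drug: Emx2 and Myb were higher in 4OHT in both genotypes, and Slamf1 and Gata2 were lower.

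Chemokines and cytokines varied from gene to gene. Of 23 inflammatory genes that passed the filter, 4 had a difference of at least 1 and 2 of at most -1, and the median was 0.00. The shares over all genes compared were 2.43% and 0.948%. Cxcl3, 1 of the 2, passed the filter through EtOH of delta/delta cells. Ccl4 stood at 0.745 and 11.3 RPKM in delta/delta cells and at 1.30 and 0.654 RPKM in delta/+ cells (difference 3.30 with a half-width of 0.52), and its neighbour in function Ccl3 at 2.42, 26.2, 2.40 and 6.91 RPKM (1.78). Both were highest in 4OHT of delta/delta cells. Ccl4 passed the filter through that library, which also makes its difference. Ccl5 stood at 1.52, 0.872, 10.4 and 1.19 RPKM (1.95), high only in EtOH of delta/+ cells.

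Nfkb2, a subunit of NF-kB, stood at 25.5, 3.89, 17.5 and 7.08 RPKM (-1.24). Among genes of STAT5 signalling, Osm, which encodes oncostatin M, stood at 5.76, 50.1, 8.74 and 20.9 RPKM (1.75), and Socs1, an inhibitor of cytokine signalling, at 2.06, 8.82, 2.19 and 3.08 RPKM (1.33). Il2ra, the alpha chain of the interleukin 2 receptor, went the other way, at 0.176, 2.44, 0.683 and 10.8 RPKM (-1.27). Its 4OHT level was the higher one in delta/+ cells, unlike those of Osm and Socs1. Without an added number, Il2ra rose 13.8-fold in delta/delta cells and 15.9-fold in delta/+ cells. Its difference thus rests on the 1 RPKM added to low EtOH levels. Ifngr1, a chain of the interferon gamma receptor, stood at 3.39, 49.3, 9.07 and 47.4 RPKM (1.25), with 4OHT levels that were nearly equal.

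Megakaryocyte and platelet genes had 5 members among 17 that passed the filter, all with the higher ratio in delta/delta cells. Over all genes compared 3.38% were members, and 71.9% of all members had the higher ratio in delta/delta cells. The median difference of the 17 was 0.54. In 4 of the 5 members the larger fall was in delta/+ cells. Among them was Thbs1, which passed the filter through EtOH of delta/+ cells. Rab27b, which acts in platelet granule release, stood at 11.8 and 5.44 RPKM in delta/delta cells and at 11.4 and 1.17 RPKM in delta/+ cells (1.52). The EtOH libraries were close and 4OHT of delta/+ cells was lowest. F2r, the thrombin receptor PAR1, was the one with a larger rise, at 48.1, 141, 163 and 196 RPKM (1.26). The 5 megakaryocyte markers summed to 75.8 and 46.9 RPKM in delta/delta cells and 100.4 and 43.2 RPKM in delta/+ cells.

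Adhesion genes leaned the same way, with 18 of 19 differences above 0, a median of 0.64 (0.31 with 5 RPKM added) and 4 members. Over all genes compared 54.4% of differences were above 0 and 3.38% of genes were members. Selplg, the ligand of P-selectin, stood at 4.25, 11.1, 4.50 and 3.40 RPKM (1.53), high only in 4OHT of delta/delta cells. Itgb2, the shared beta chain of leukocyte integrins, stood at 39.6, 11.7, 53.3 and 6.21 RPKM (1.23), and its partner chain Itgal at 2.38, 2.06, 6.07 and 1.86 RPKM (1.16). Itga6, a laminin receptor chain, stood at 1.38, 7.80, 5.59 and 9.06 RPKM (1.28). In Itga6 the gap was in EtOH, where delta/delta cells was lower.

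Hypoxia and integrated stress response lists had 3 members of 27 and 4 of 20, against 3.38% of all genes compared, and their members lay on the side that held 71.9% of all members. Of 27 glycolysis and hypoxia genes 3 had a difference of at least 1 and 0 of at most -1, with a median of 0.35. Egln3, an oxygen-sensing prolyl hydroxylase, stood at 2.91, 0.102, 19.98 and 0.228 RPKM (2.27), so its gap was in EtOH. Hk2, a hexokinase, stood at 2.04, 5.28, 5.96 and 4.48 RPKM (1.39), and Ddit4, an inhibitor of mTOR signalling, at 38.8, 43.3, 82.9 and 35.5 RPKM (1.35).

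Of 20 stress response genes 4 were members, Ddit4 and 3 enzymes of amino acid synthesis. Asns, the asparagine synthetase, stood at 65.5, 93.3, 80.8 and 56.3 RPKM (1.02). Psat1 and Psph, enzymes of the serine pathway, stood at 78.6, 130.1, 101 and 76.98 RPKM (1.11) and at 21.4, 45.6, 36.6 and 35.8 RPKM (1.09). All 3 were highest in 4OHT of delta/delta cells. None of 22 cholesterol synthesis genes was a member, and nothing is read from this, as only 3.38% of all genes compared were members.

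Growth and cell cycle lists had shares of members near or below the 3.38% of all genes compared, which is about 1 gene for lists of this size. Of 24 G2 and mitosis genes only Kif11, a spindle motor, was a member, at 46.3 and 21.3 RPKM in delta/delta cells and 48.3 and 46.1 RPKM in delta/+ cells (-1.02). Yet 23 of the 24 differences were below 0, with a median of -0.50. Of 26 S phase genes none was a member and 2 differences were above 0, with a median of -0.22. None of 29 ribosome biogenesis genes (median 0.25) or 37 ribosomal protein genes (median -0.00) was a member.

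The remaining lists held few members each, but some had few genes compared and a share above the 3.38% of all genes. Members were 33.3% of the oestrogen receptor response list, 23.1% of the histone list and 4.17% of the p53 list. The oestrogen receptor response list, included because 4OHT binds that receptor, had 2 members among 6 genes that passed the filter, Myb and Cited1, a transcriptional coactivator at 0.505, 5.79, 0.822 and 2.89 RPKM (1.08). Btg2, an antiproliferative gene, was the only member of 24 p53 targets, at 56.0, 7.70, 20.004 and 6.49 RPKM (-1.23). It was highest in EtOH of delta/delta cells. Gpx3, a secreted glutathione peroxidase, was the only member of 20 antioxidant genes (1.07), and Dusp1, a phosphatase of MAP kinases, joined Egr1 among 20 immediate early and ERK feedback genes (-1.08). Of 13 histone genes 1 had a difference of at least 1 and 2 of at most -1, all at low levels. Apoe was the member among 3 monocyte and macrophage genes, and Col5a1 that among 2 stromal genes. None of 6 neutrophil or 6 dendritic cell genes was a member, and none of 15 B cell genes passed the filter.

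The 15 genes with a larger rise in delta/+ cells were mostly low. Ncoa4, the cargo receptor for autophagy of ferritin, was the most abundant, at 46.8 and 48.0 RPKM in delta/delta cells and 46.9 and 115 RPKM in delta/+ cells (-1.24). The libraries were nearly equal except 4OHT of delta/+ cells. Egr1, an immediate early transcription factor, stood at 33.9, 89.2, 10.8 and 71.6 RPKM (-1.25), with most of its gap in EtOH. Wnk4, a kinase that regulates salt transport, stood at 2.59, 4.45, 1.93 and 12.1 RPKM (-1.56), Nudt12, a nucleotide hydrolase, at 3.46, 4.74, 3.38 and 11.6 RPKM (-1.16), and Plac8 at 6.36, 8.06, 2.09 and 7.18 RPKM (-1.11). With 5 RPKM added, Wnk4 (-0.99), Nudt12 (-0.78) and Plac8 (-0.58) were no longer members.

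The larger falls in delta/+ cells included more genes named by the size of their difference or as a list's member. Palm, a lipid-anchored membrane protein, stood at 3.38, 5.63, 9.66 and 2.25 RPKM (2.31, or 1.36 with 5 RPKM added). Tnfsf14, the cytokine LIGHT, stood at 18.7, 5.03, 43.4 and 2.23 RPKM (2.08), and Arap3, a regulator of small GTPases, at 25.1, 19.5, 42.7 and 8.48 RPKM (1.86). Each was highest in EtOH and lowest in 4OHT of delta/+ cells. Col5a1, a collagen chain, stood at 32.3, 1.55, 37.7 and 0.426 RPKM (1.06), with a small gap in EtOH.

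The ratios of a member need not share a sign. They did in 240 members and did not in 84 (25.9%, against 18.7% of all genes compared). In 69 of the 84 the gene was higher with 4OHT in delta/delta cells and lower in delta/+ cells, and in 15 the reverse. When both ratios also had to be at least 0.5 in size, 21 members remained, and in all 21 the gene was higher with 4OHT in delta/delta cells. They included Fcer1a, Lat2, Lcp2, Il13, Srgn, Slc6a4 and Asns. Anxa2, an annexin of the cell cortex, had the highest mean of those with a difference over 2, at 26.9 and 67.1 RPKM in delta/delta cells and 83.3 and 45.9 RPKM in delta/+ cells (2.13). Lilrb4 and Fcgr2b, inhibitory receptors of myeloid and mast cells, stood at 5.79, 14.4, 12.2 and 6.55 RPKM (1.98) and at 2.45, 6.55, 3.39 and 1.48 RPKM (1.96).

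The difference of responses is also the genotype gap in 4OHT minus the genotype gap in EtOH, and members differed in where the gap lay. The gap was larger in size in EtOH for 163 of 324 members (50.3%, against 49.6% of all genes compared). For larger falls in delta/delta cells it was larger in EtOH for 56 of 76 genes, and 73 of the 76 were higher in delta/delta cells in EtOH, with a median EtOH gap of 1.15 and a median 4OHT gap of -0.12. For larger rises in delta/delta cells, only 13 of 159 genes were higher in delta/delta cells in EtOH and 137 were higher there in 4OHT, with median gaps of -0.64 and 0.76. For larger falls in delta/+ cells the medians were -0.69 and 0.93, and for larger rises in delta/+ cells 0.03 and -1.27. In 218 of the 324 members the genotype with the higher level changed between treatments. The rule picks members by the difference between these gaps, so it favours such changes, and the share over all genes is not given here. The classes rest on the same values, so the counts by class describe the members and no more than that.

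**Figure D4:**
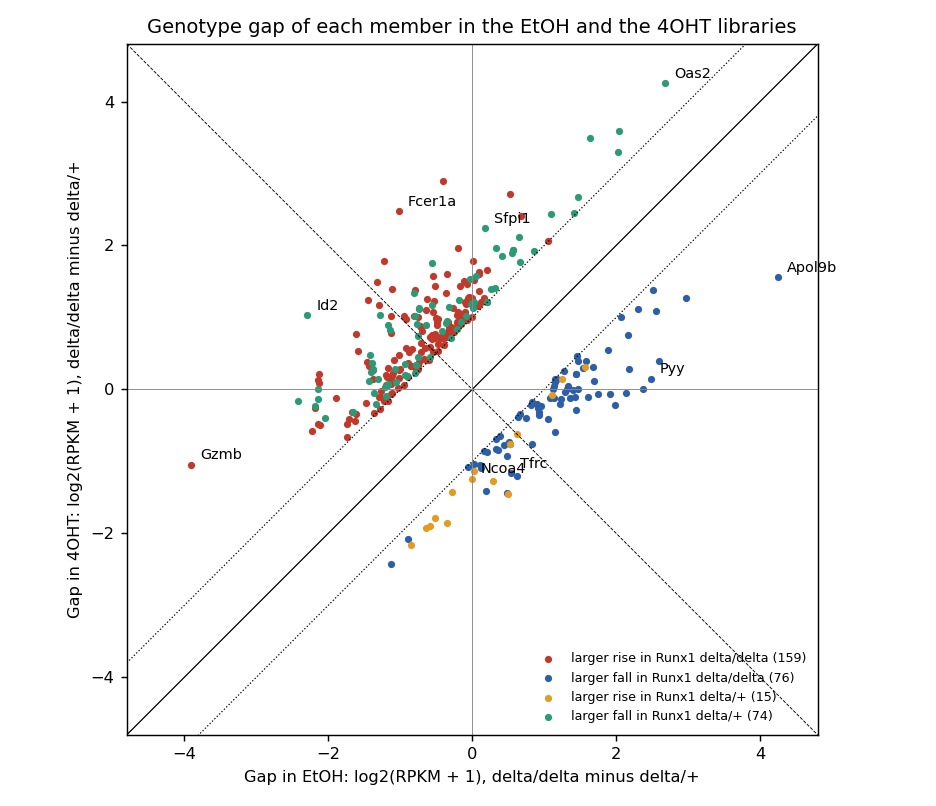
Genotype gap of each of the 324 members, log2(RPKM + 1) in delta/delta cells minus delta/+ cells, in EtOH (horizontal axis) and in 4OHT (vertical axis), coloured by class. Points lie beyond the dotted lines by the rule; larger falls in delta/delta cells (blue) sit at a median of 1.15 in EtOH and -0.12 in 4OHT, and larger rises there (red) at -0.64 and 0.76.

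The promoter table matched 251 of the 324 members and 7809 of the 9595 genes compared. A RUNX motif (TGTGGT, either strand) was present in 19.5% of the members' windows and 12.2% of all windows. A GATA motif (AGATAA, either strand) was present in 13.9% and 6.19%, and the core of the interferon response element in 3.98% and 3.07%. By class, the GATA share was 11.1% of 126 windows for larger rises in delta/delta cells, 14.3% of 63 for larger falls there, 23.5% of 51 for larger falls in delta/+ cells and 0% of 11 for larger rises there. Of the 8 windows of the mast cell list's members, 4 held a RUNX and 5 a GATA motif, while those of Mcpt8, Srgn and Gata2 held no GATA motif. A GATA motif was also in 3 of 5 windows of erythroid members and 3 of 6 of interferon members. A RUNX motif was in 1 window of each of these lists. A match is a run of letters and not a measured site.

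The authors' deposited table gives a corrected p-value for 4OHT against EtOH within each replicate number, from a test of 1 library against another. In the authors' deposited table that p was under 0.05 for 924 of the genes compared in delta/delta cells (9.63%) and for 445 in delta/+ cells (4.64%). Of the 324 members, the authors' deposited table had 88 under 0.05 in delta/delta cells only, 16 in delta/+ cells only, 48 in both and 172 in neither. The rule used the same values, so nothing is read from these counts, and a call in 1 genotype is no test of the difference.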

How the data were processed

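Of RNA-seq from 4 mouse libraries, 1 table of 23240 genes was used. The authors deposited RPKM for each library and, per the file headers, a signed fold (a score), a p-value and an FDR-corrected p-value of 4OHT against EtOH within each replicate number. The authors' score and uncorrected p-value were not used. The submitters' processing notes name the build mm 9; the aligner, counting rule, annotation and strand were not given in the sources used here, nor was the kit of each library (TruSeq or NEBNext, per the labels' protocols).

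Genes whose mean reached 1 RPKM were compared as log2(RPKM + 1), a scale that understates changes of low genes. The threshold and the sign of the difference, but not the split into classes, were tried on simulated data. The simulation held counting error alone and equal EtOH levels in both genotypes, so it does not cover other error in these libraries. Whole reads were recovered for 17213 of 17213 genes above 0 (100%, tolerance 0.02 reads), with totals resting on 47 of 362 single-transcript genes examined; totals were 34.6, 36.7, 33.7 and 39.4 M reads. They gave 95% counting intervals of the difference, whose width leaves out all error but that of counting. Whether PCR copies were counted is not known from the values used here. Python 3.11.15, numpy 2.4.6, pandas 2.3.3 and matplotlib 3.10.9 were used.

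The members, 32 gene lists (807 entries, 796 in the table, 9 through other symbols; 31 with a gene that passed the filter, 8 without a member) and their counts were chosen with earlier results of these data known; 74 members were on a list, and 1 result is not reported here. Named genes were the 8 largest differences per class with a mean of at least 5 RPKM, and up to 6 members per list by size, Runx1 and Flt3. Genes of IgE signalling, leukotriene, apolipoprotein L and OAS families and those with opposite signs were chosen after their values were seen. Alternatives were the number added before the log, the filter, the scaling and the threshold.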

Additional observations from a re-analysis of the deposited data

Results flagged for a closer look

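Responses with opposite signs in the genotypes were seen for 84 members, 69 of them higher with 4OHT in delta/delta cells and lower in delta/+ cells. With both ratios at least 0.5 in size there were 21, all higher with 4OHT in delta/delta cells, among them Fcer1a, Slc6a4, Anxa2 and Palm. With 1 library per genotype and treatment, the difference between the genotypes was not tested for any of these genes.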

How the results depend on the processing

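No paired analysis was possible because each genotype and treatment holds 1 library, and for the same reason no library could be left out. The counts moved most with the threshold and with the number added before the log. With 0.1 RPKM added there were 571 members (299 larger rises and 109 larger falls in delta/delta cells, 30 and 133 in delta/+ cells), 322 with the larger gap in EtOH, and 315 of the 324 were shared. With 5 RPKM added there were 135 (72, 33, 4 and 26), 74 with the larger gap in EtOH, and 132 were shared. A threshold of 1.5 left 103 (51, 20, 3 and 29; 51 with the larger gap in EtOH), and one of 0.8 gave 574 (292, 133, 30 and 119; 305). With every library at 1 RPKM or more, larger falls in delta/delta cells numbered 49 and larger rises in delta/+ cells 9; the latter were 7 with a mean of at least 5 RPKM.

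Median-ratio scaling moved the median ratio of all genes from 0.17 to -0.06 in delta/delta cells and from 0.15 to -0.02 in delta/+ cells. It gave 320 members, 300 of them shared, with 65.6% on the side of a higher ratio in delta/delta cells. Rescaling without globin genes gave 325 with 304 shared. The requirement of 10 reads in every library, chosen after seeing the data, gave 295. None of the 29 largest named differences changed sign under the added numbers or the scalings, and 25 stayed at 1 or more in size with 5 RPKM added. Depth limits the low genes: 17 members had 3 reads or fewer in a library.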

Other observations

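The gene families that follow were grouped after their values were seen. Such a choice favours families with many members, so their counts describe the genes and no more than that. Over all genes compared 3.38% were members. The metallothionein genes Mt1 and Mt2, which bind zinc and copper, went from 45.5 to 357 RPKM and from 8.48 to 75.2 RPKM in delta/delta cells, and from 201 to 506 RPKM and from 29.2 to 94.1 RPKM in delta/+ cells, with differences of 1.62 and 1.35. Both were higher in delta/+ cells in each treatment, and Mt3 was not a member (0.13). All 3 CD200 receptor genes that passed the filter were members: Cd200r3 stood at 2.29, 3.24, 4.49 and 0.931 RPKM in EtOH and 4OHT of delta/delta cells, then of delta/+ cells (1.87), and Cd200r1 and Cd200r4 differed by 1.23 and 1.19. Of 8 S100 genes, S100a6 (1.57), S100a11 (1.31) and S100a10 (1.06) were members, and the neutrophil genes S100a8 (-0.03) and S100a9 (0.18) were not.

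Of 8 globin genes 3 had a difference of at most -1, and they were not the most abundant ones. The embryonic genes Hba-x and Hbb-bh1 stood at 1.88, 2.86, 1.04 and 9.60 RPKM (-1.96) and at 6.45, 0.893, 15.3 and 9.15 RPKM (-1.30), while Hbb-b1 differed by -0.93. Reads of globin genes can be shared between copies, which leaves each value uncertain.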
